A study of Mus musculus with 4 samples.

Results

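The granins and related proteins of the secretory granule matrix were followed in mouse pancreatic islets with and without the tetraspanin gene Tspan7. The members were 8 genes taken by symbol, the chromogranin genes Chga and Chgb, the secretogranin genes Scg2, Scg3 and Scg5, and the granule cargo genes Vgf, Pcsk1n and Nucb2. Each matched 1 of the 52636 gene identifiers in the deposited count table, and all 8 were among the 16924 genes that passed the low-count filter. Islets came from wild-type mice (2 libraries, called control 1 and control 2) and from Tspan7 knockout mice of genotype Tspan7 y/- (2 libraries, knockout 1 and knockout 2), with no treatment named for either group. The labels give no strain, age or number of animals per library. They name no tissue-specific driver, and the text on the series calls the second group a knockdown. No label says that libraries of 1 group came from separate animals, so p-values measure the spread between these libraries, which may be technical.

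Granins are acidic proteins that bind calcium and condense in the acidic lumen of the Golgi and of the forming granule, where hormones are packed with them. Many are also precursors that are cut into smaller peptides. Scg5 and Pcsk1n are chaperone-like or inhibitory partners of the prohormone convertases that cut them. The granins, Scg5 and Pcsk1n are hallmarks of endocrine cells, including the alpha, beta and delta cells of the islet.

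Total counts per library ranged from 7855665 to 9377220. Tspan7, the targeted gene, fell from 1924 and 1795 counts in control to 3 and 2 counts in knockout islets (adjusted p = 3.51e-06, edgeR's quasi-likelihood test with Benjamini-Hochberg adjustment over all genes), so each library matched its label. The tissue label was met by the hormone genes, whose 8 members summed to between 20529.9 and 24082 CPM (counts scaled to a common library size) in each library. Markers of the digestive acinar cells of the surrounding pancreas varied far more, with the 10 listed ones at 3036 and 73.2 summed CPM in control 1 and 2 and 1364 and 6398 in knockout 1 and 2.

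RefSeq promoter windows were held for 7 of the 8 members, all but Vgf, on build GRCm38.p6, each from 250 bases before to 50 bases after the start site. The cyclic AMP response element (CRE) is the DNA site of the CREB family of activators, and its letters were searched on both strands as the full palindrome TGACGTCA and as the short form TGACG. The full palindrome lay in the windows of Chgb and Scg2, beginning 72 and 68 bases upstream of the start, and was in 1.79% of all 32851 windows of the same length. The short form outside a palindrome was in the windows of Chga (44 bases upstream), Scg3 (30 bases upstream) and Scg5 (3 matches), and the short form in any setting was in 20.8% of all windows. Neither form was in the windows of Pcsk1n and Nucb2. The 100 bases before the start are printed for the 4 members with a match there, 5′ to 3′ on the coding strand with the matched letters in capitals, because they are the most abundant members and show how alike the 2 palindromes are placed. They lie at chr2:132781542-132781641 (plus strand), chr1:79440027-79440126 (minus), chr12:102554841-102554940 (plus) and chr9:75684057-75684156 (minus).
Chgb: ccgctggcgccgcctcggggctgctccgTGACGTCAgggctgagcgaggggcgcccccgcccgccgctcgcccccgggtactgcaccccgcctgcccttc
Scg2: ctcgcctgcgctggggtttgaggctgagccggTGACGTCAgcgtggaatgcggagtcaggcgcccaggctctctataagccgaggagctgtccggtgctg
Chga: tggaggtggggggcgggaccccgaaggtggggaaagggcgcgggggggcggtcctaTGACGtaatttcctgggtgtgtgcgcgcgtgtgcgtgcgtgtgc
Scg3: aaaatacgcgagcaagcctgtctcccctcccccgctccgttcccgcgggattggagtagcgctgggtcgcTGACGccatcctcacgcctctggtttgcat

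The members spanned a wide range of levels. Per length of exon, Scg2 was the most abundant at 2459 ± 131 CPM per kb in control and 2381 ± 805 in knockout islets (SD, n = 2 each), rank 21 of 16881 tested genes with a known exon length. Chga, the classical chromogranin, followed at 1904 ± 259 and 2102 ± 377 CPM per kb (rank 26). On that scale the insulin gene Ins2 stood at 4580.4 ± 346 and the glucagon gene Gcg at 4485 ± 814 in control islets. The length used was that of all annotated exons of a gene merged (1312 bases for Ins2, 1494 for Gcg and 2515 for Scg2). It can exceed the length of the transcript that is made, so levels per kb and the order of genes depend on that choice. Levels and ranks are those of the deposited counts, for which the treatment of multi-mapping reads is not given. Whether they follow the amounts of each transcript in the islet was not tested. Scg3, a membrane-associated granin, came next at 763 ± 157 CPM per kb in control islets, followed by Chgb at 486 ± 67.0.

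The convertase partners and Nucb2 were lower. Scg5 had 242 ± 29.7, Nucb2 181 ± 24.2 and Pcsk1n 135 ± 27.5 CPM per kb in control islets. Vgf was last at 16.8 ± 4.48 in control and 12.3 ± 1.86 in knockout islets (rank 3717). The 4 libraries of Scg2 and Chga overlapped, as did those of Nucb2 and Pcsk1n, so their order within each pair is not beyond the spread. No other neighbours in the order overlapped, and the widest step was from Pcsk1n to Vgf, 9.05-fold. The highest and lowest members differed 167-fold.

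**Figure D1:**
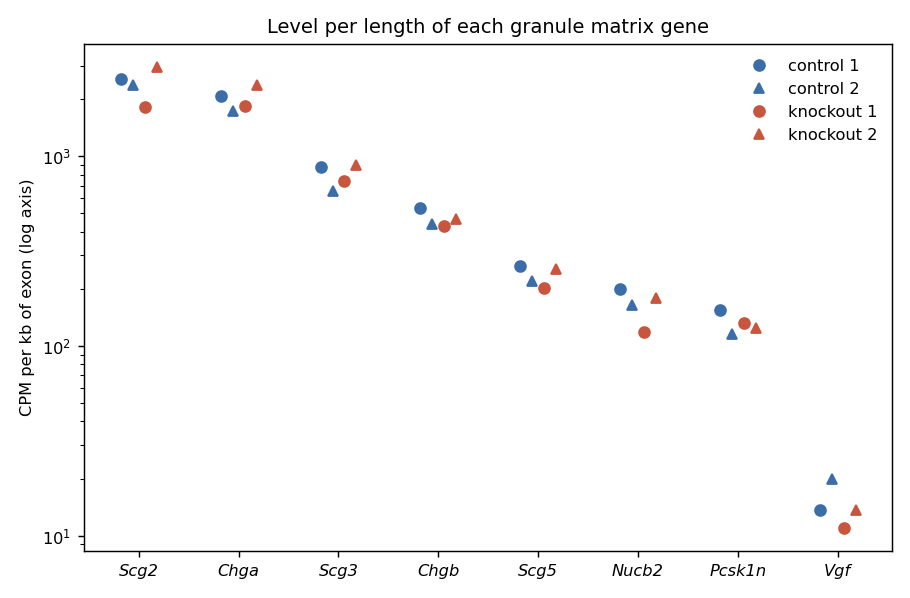
Level of each member per kilobase of exon (log axis) in the 4 libraries, with control in blue, knockout in red, circles for replicate 1 and triangles for replicate 2. Scg2 and Chga overlap at the top, Nucb2 and Pcsk1n overlap further down, and Vgf lies 9.05-fold below Pcsk1n.

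Loss of Tspan7 was compared with wild type to see whether the transcripts of the granule matrix differ in a study of insulin granule release. None of the 8 members passed, with 0 higher and 0 lower at an adjusted p under 0.05, beside 0.00591% of all genes tested, which was Tspan7 alone. In this edgeR fit no member had an unadjusted p under 0.05, the adjusted p of every member rounded to 1, and DESeq2 and limma-voom each called 0 members. In other edgeR fits across all genes some unadjusted values were lower. For Vgf the unadjusted p was 0.0346 with the replicate number as a block, 0.00924 with no low-count filter and 0.00395 without control 1. Without knockout 2 it was 0.0088 for Nucb2, 0.0360 for Vgf and 0.0405 for Scg2 (edgeR), and with crossed replicate numbers as a block, a fit chosen after seeing the data, it was 0.0262 for Nucb2. None of these passed after adjustment, the smallest adjusted p being 0.262, for Vgf without control 1. In these whole islets, fewer cells of a type and less RNA per cell cannot be told apart.

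The chromogranins overlapped between groups. Chga, whose product condenses in the granule and yields peptides such as vasostatin and pancreastatin, had 5752 and 4741 CPM in control 1 and 2 and 5059 and 6527 in knockout 1 and 2. A knockout library was thus highest and a control library lowest. The log2 fold change, knockout against control, was 0.14 ± 0.18 (SE), with a 95% confidence interval (CI) of -16.7% to 46.4% of the control level. Chgb, a second chromogranin that binds calcium in the granule, had 1460.3 and 1201 CPM in control and 1179 and 1283 in knockout libraries. Knockout 2 lay between the control libraries and knockout 1 just below them, for a log2 fold change of -0.11 ± 0.15 (CI -26.9% to 17.2%).

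Scg2, the precursor of secretoneurin, had 6418 and 5953 CPM in control 1 and 2 and 4555 and 7419 in knockout 1 and 2. The knockout libraries held both the lowest and the highest value, and the group means of 6185 ± 329 and 5987 ± 2025 CPM differed far less than the 2 knockout libraries did. Its log2 fold change was -0.05 ± 0.23 (CI -32.7% to 39.2%), the widest SE of the 8. Scg3, which binds cholesterol-rich granule membrane and holds other granins there, had 2393 and 1786 CPM in control and 2018 and 2449 in knockout libraries. The groups overlapped, with a log2 fold change of 0.10 ± 0.18 (CI -19.8% to 42.4%).

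Vgf, the precursor of several secreted peptides and a gene induced by growth factors in neurons, had the lowest ratio. Its counts were 342 in control 1, 558 in control 2, 314 in knockout 1 and 305 in knockout 2, or 40.47, 59.30, 32.61 and 40.43 CPM in that order. The groups did not overlap, with knockout lower, but knockout 2 and control 1 differed only in the second decimal, and control 2 stood alone above the other three. With upper-quartile scaling the groups overlapped, at 39.92 CPM in control 1 and 40.13 in knockout 2. Vgf was the 1 member of 8 whose knockout libraries were both lower, an arrangement seen in 15.0% of all genes tested, and no member had both higher, against 15.3% of all genes. On library totals alone, with no scaling factor, Chgb was lower in both knockout libraries too, at 1417.9 and 1236 CPM in control and 1210.3 and 1232 in knockout libraries.

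The log2 fold change of Vgf was -0.45 ± 0.21 (CI -47.6% to 1.79%, unadjusted p = 0.0606, edgeR's quasi-likelihood test across all genes, adjusted p = 1). It was -0.15 without control 2, -0.70 without control 1 and -0.30 without knockout 1. Vgf took 0.00393% of the counts of control 1 (exact binomial 95% interval 0.00352% to 0.00437%), 0.00610% of control 2 (0.00561% to 0.00663%), 0.00335% of knockout 1 (0.00299% to 0.00374%) and 0.00388% of knockout 2 (0.00346% to 0.00434%). The interval of control 2 stood clear, and those of the other three overlapped. Such intervals cover counting error only.

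The convertase partners also overlapped. Scg5, a chaperone that the convertase encoded by Pcsk2 needs to become active, had 412 and 346 CPM in control 1 and 2 and 317 and 399 in knockout 1 and 2. Knockout 1 was lowest and control 1 highest, and the log2 fold change was -0.08 ± 0.16 (CI -27.1% to 21.9%). Pcsk1n, which encodes proSAAS, an inhibitor of the convertase of Pcsk1, had 339 and 254 CPM in control and 290.5 and 271 in knockout libraries. Both knockout values lay between the control values, with a log2 fold change of -0.08 ± 0.16 (CI -27.0% to 23.1%). Pcsk1n is X-linked like Tspan7, with 45 protein-coding genes between them in GENCODE M21, and it overlaps Eras on the opposite strand, which had 1 count in all.

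Nucb2, a calcium-binding protein of the Golgi and granule and the precursor of nesfatin, had 463 and 383 CPM in control 1 and 2 and 274 and 414 in knockout 1 and 2. Knockout 1 stood alone below the other three, and knockout 2 lay between the control libraries. The log2 fold change was -0.30 ± 0.21 (CI -41.8% to 13.7%, unadjusted p = 0.191, edgeR). It was -0.63 without knockout 2 and -0.03 without knockout 1, so the knockout library chosen moved it from near 0 to its lowest value.

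**Figure D2:**
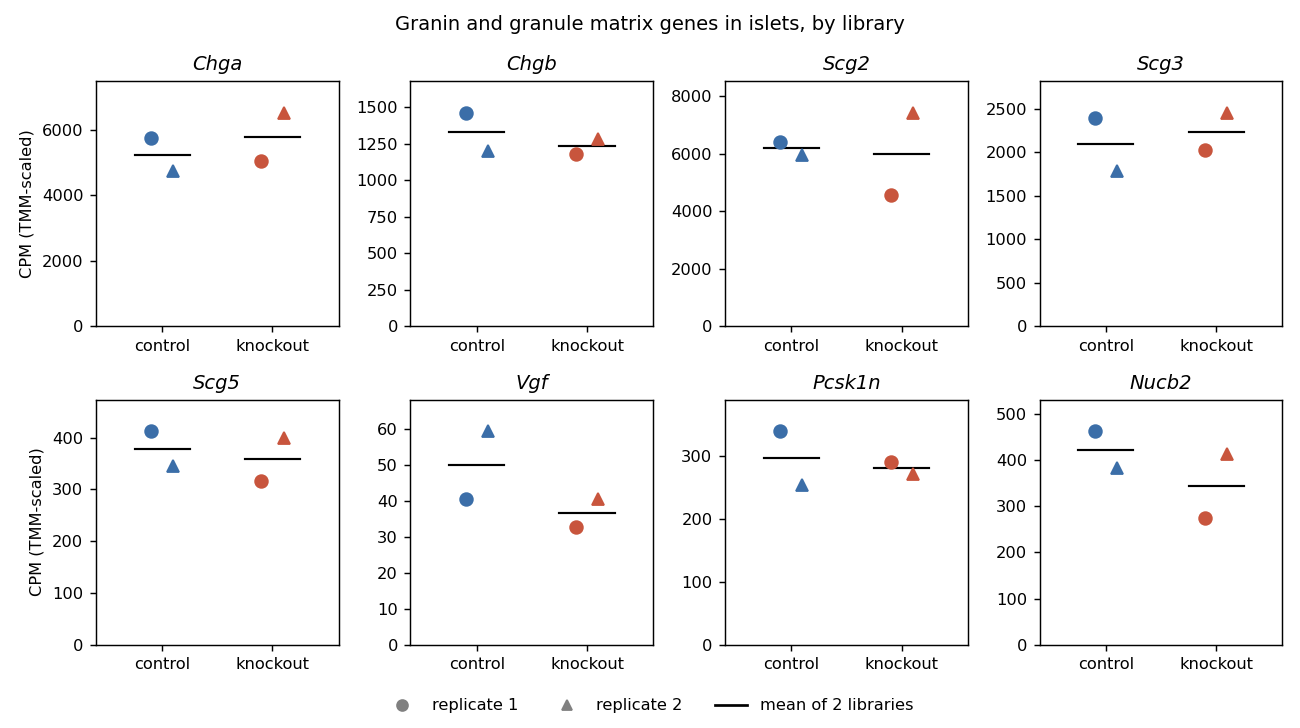
CPM of each member in the 4 libraries, on axes from 0, with control in blue, knockout in red, circles for replicate 1, triangles for replicate 2 and bars for group means. The groups overlap in 7 panels, and in Vgf control 2 stands at 59.3 CPM above 3 libraries between 32.6 and 40.5.

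Over the 8 members 6 log2 fold changes were negative and 2 positive, and the median was -0.08, beside 0.0034 over all genes tested. The count of negative values was 2 without control 1, 7 without control 2, 4 without knockout 1 and 8 without knockout 2. The direction of the members therefore depended on which library was left out. The members together took 1.68% and 1.52% of the counts of control 1 and 2 and 1.41% and 1.81% of those of knockout 1 and 2. Chga and Scg2 alone made up between 70.1% and 74.2% of these counts. Knockout 1 was lowest and knockout 2 highest, and the summed levels, 16000.3 ± 1806 CPM in control islets against 16264 ± 3591 CPM, had a log2 ratio of 0.02.

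**Figure D3:**
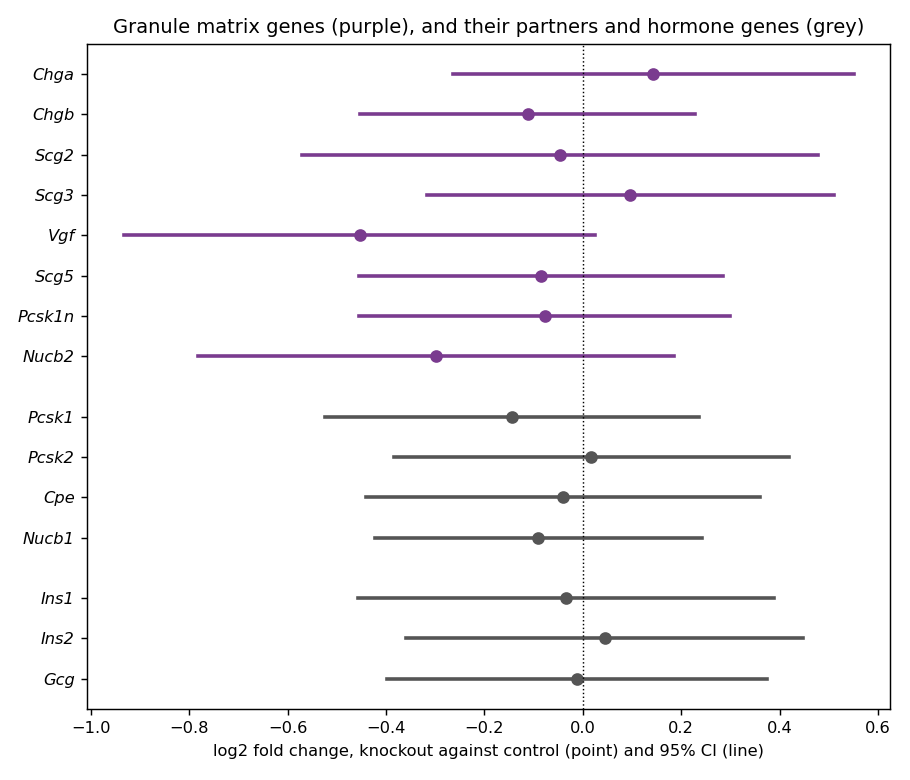
Log2 fold change (point) and 95% CI (line) of the 8 members in purple, and of their partners and 3 hormone genes in grey. Every interval crosses 0, and those of Vgf and Nucb2 reach furthest below it.

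In all 8 members the larger of the 2 within-group differences between libraries exceeded the log2 fold change in size. An arrangement of the libraries was then counted that was not planned and was picked after values were seen, so its counts are a description. In 6 of the 8, control 1 was above control 2 and knockout 2 above knockout 1, an arrangement seen in 29.8% of all genes tested. The exceptions were Vgf, which was 0.55 lower in control 1 than in control 2 on the log2 scale, and Pcsk1n, which was 0.10 lower in knockout 2 than in knockout 1. The median difference over the 8 was 0.28 log2 units between the control libraries and 0.32 between the knockout libraries, against 0.0029 and -0.0021 over all genes tested. The within-group coefficient of variation estimated by edgeR ran from 16.5% for Vgf to 21% for Scg2, with a median of 16.1% over all genes tested. This estimate is drawn towards that of genes of like abundance, so it is not each gene's own spread. For Vgf it was the lowest of the members, although the control libraries differed by 0.55 log2 units.

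The same arrangement was counted in other lists. It held in 4 of 6 prohormone processing enzymes, 4 of 8 hormone genes, 7 of 11 granule membrane genes, 7 of 12 granule formation genes, 3 of 6 other secreted peptide genes, 3 of 6 calcium-binding proteins, 4 of 7 endothelial markers and 6 of 8 beta cell markers, beside 29.8% of all genes tested. It held in 1 of 7 regulators of granule genes, 1 of 7 ductal, 1 of 9 macrophage and 1 of 6 alpha cell markers, 2 of 7 markers of nerve, glia and chromaffin cells, and in 0 of 4 delta cell and 0 of 6 stellate markers. Sums over a list are set by its most abundant genes. The 6 prohormone processing enzymes had 9100.2 and 7222 summed CPM in control 1 and 2 and 7156 and 8540.0 in knockout 1 and 2. The hormone genes summed to 24082 and 20529.9 in control and 20686 and 24026 in knockout libraries. In all 9 tested acinar markers control 1 was above control 2 and knockout 2 above knockout 1. The same held for all 10 activity-regulated genes, the immediate-early genes induced by depolarisation and by cell isolation, which summed to 1000.4 and 310.2 CPM in control 1 and 2 and 726 and 1991 in knockout 1 and 2. Control 1 and knockout 2 were also the smaller library of each group. Total counts were 8704271 against 9140275 in control 1 and 2, and 7855665 against 9377220 in knockout 2 and 1. The part of library size, of acinar carry-over or of islet activity in the members' differences was not tested.

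**Figure D4:**
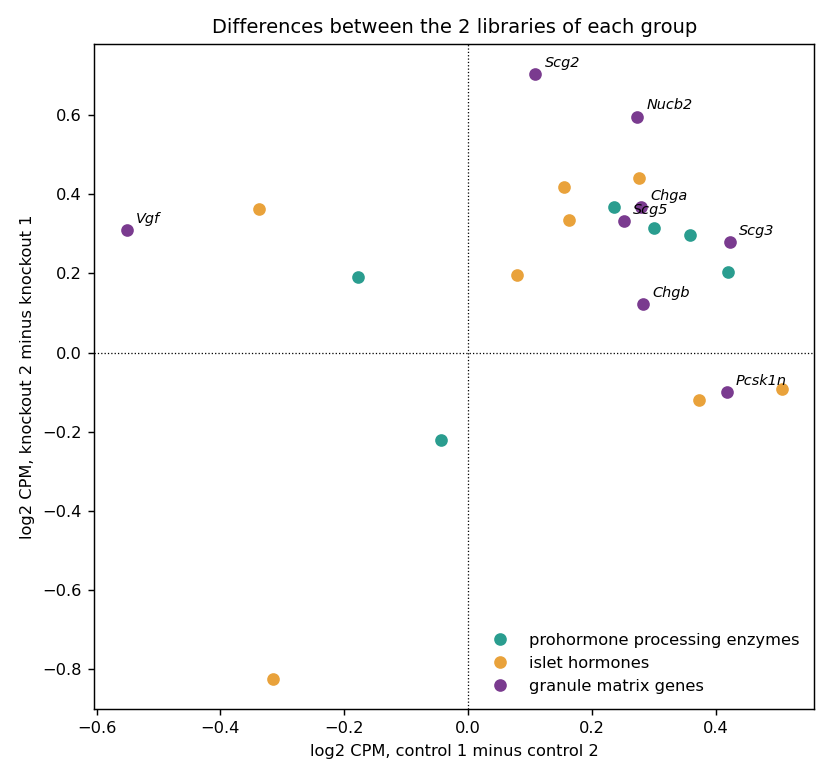
Log2 difference between the 2 control libraries (x axis) and between the 2 knockout libraries (y axis) for the 8 members (purple), 6 prohormone processing enzymes (green) and 8 hormone genes (orange). Upper right, 6 members lie above 0 on both axes, while Vgf lies to the left and Pcsk1n just below.

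**Figure D5:**
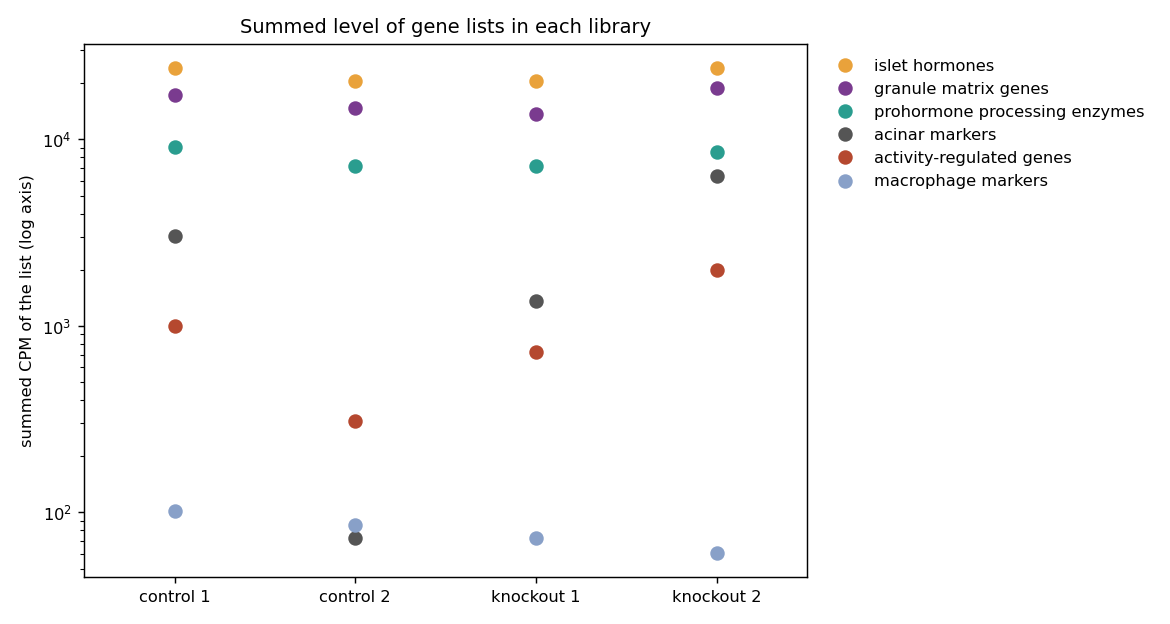
Summed CPM of gene lists (log axis) in each library. The granule matrix genes range from 13725 to 18803 CPM, while acinar markers run from 73.2 to 6398 CPM and activity-regulated genes from 310.2 to 1991 CPM.

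Ratios of 2 genes within a library do not depend on the scaling, and for 1 pair compared across libraries gene length cancels. The 9 pairs were chosen after values were seen, and no share over all gene pairs was computed, so how many of them separate the groups is not read as a result. An exact permutation test of 2 libraries against 2 cannot go below a two-sided p of 0.333, so none of these can pass. Chgb per Chga was 0.254 and 0.253 in control and 0.233 and 0.197 in knockout libraries, lower in both. Scg3 per Cpe, the carboxypeptidase that trims prohormones and binds Scg3, was 0.789 and 0.788 against 0.843 and 0.888, higher in both. Scg5 per Pcsk2, its convertase, was 0.125 and 0.135 against 0.119 and 0.122. In both of the former pairs the 2 control libraries had nearly equal ratios, although the single genes differed between them.

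Chga per Ins2 was 0.909 and 0.833 in control and 0.954 and 0.921 in knockout libraries, and Vgf per Chga was 0.00704 and 0.0125 against 0.00645 and 0.00619. The groups overlapped for Pcsk1n per Pcsk1 (0.296 and 0.273 against 0.347 and 0.261), Scg2 per Chga (1.12 and 1.26 against 0.900 and 1.14), Nucb2 per its paralog Nucb1 (1.86 and 1.70 against 1.34 and 1.71) and Chga per Gcg (0.761 and 0.812 against 0.731 and 1.02).

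The enzymes that act on granule cargo did not pass. Of the 6 processing enzymes 0 were called, 5 had negative values and 1 a positive one, and the median log2 fold change was -0.16. The convertase genes Pcsk1 and Pcsk2 stood at -0.14 ± 0.17 (CI -30.5% to 17.8%) and 0.02 ± 0.17 (CI -23.3% to 33.6%), and Cpe at -0.04 ± 0.17. Qpct, the glutaminyl cyclase that caps peptides with pyroglutamate, was low, with 27 and 34 control counts against 19 and 17 knockout counts, and its log2 fold change was -0.69 ± 0.34. The carboxypeptidase gene Cpd stood at -0.18 ± 0.14 and the amidating enzyme gene Pam at -0.17 ± 0.17.

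Genes of the granule membrane and of granule formation did not pass either. Among 11 genes of the granule membrane and its acidification 8 values were negative, with a median of -0.04. Slc18a1, a vesicular monoamine transporter gene, had 25.1 and 38.4 CPM in control and 23.7 and 19.6 in knockout libraries, for a log2 fold change of -0.55 ± 0.23 (unadjusted p = 0.0403, adjusted p = 1, edgeR across all genes). As with Vgf, control 2 was the highest library, and the value was -0.21 without it. The receptor-like phosphatase gene Ptprn stood at -0.23 ± 0.15 and the zinc transporter gene Slc30a8 at 0.25 ± 0.17. Of 12 granule formation genes 7 were negative (median -0.01), with the autoantigen gene Ica1 at 0.14 ± 0.13, its relative Ica1l at 0.19 ± 0.19 and Hid1, needed for granule cargo sorting, at -0.11 ± 0.13.

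Other cargo genes did not pass. The 8 hormone genes had 4 values in each direction and a median of 0.02, with Ins1 at -0.03 ± 0.18, Ins2 at 0.04 ± 0.18, Gcg at -0.01 ± 0.17, Pyy at 0.06 ± 0.13, Ppy at 0.08 ± 0.18 and Sst at 0.06 ± 0.18. Of 11 further secreted peptide genes 6 could be tested, 5 of them negative (median -0.13), and Nts had 0 counts in all 4 libraries. Ucn3, a beta-cell maturity peptide, stood at 0.29 ± 0.19 and the granule protein gene Resp18 at -0.10 ± 0.16. The opioid precursor gene Pdyn stood at -0.58 ± 0.44, and at -0.10 without knockout 1 and -1.27 without knockout 2. All 6 calcium-binding proteins of the secretory lumen were negative by small amounts (median -0.13), with Rcn1 at -0.23 ± 0.23, Sdf4 at -0.14 ± 0.15, Calu at -0.11 ± 0.17 and Nucb1 at -0.09 ± 0.14.

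Transcription factors that act on granule genes had a median of -0.06 over 7 genes, 5 of them negative. Crem, a CRE-binding factor gene, had 61.1 and 56.2 CPM in control and 48.1 and 48.5 in knockout libraries, both lower, with a log2 fold change of -0.28 ± 0.14 (unadjusted p = 0.0728, adjusted p = 1, edgeR across all genes). Creb1 stood at -0.15 ± 0.15 and the endocrine factor gene Insm1 at 0.11 ± 0.15. All 10 activity-regulated genes were positive, with a median of 0.87 and 0 called. Npas4 had 53.0 and 34.4 CPM in control and 68.2 and 82.7 in knockout libraries, and its log2 fold change was 0.79 ± 0.22 (unadjusted p = 0.00695, adjusted p = 1, edgeR across all genes), or 0.51 without control 2. Dusp1 stood at 0.51 ± 0.36. Fos stood at 1.83 ± 1.18, but at 0.15 without knockout 2 and 2.59 without knockout 1. Control 2, the library with the most Vgf (59.30 CPM), had the lowest sum of these genes (310.2 CPM). Knockout 1, with the least Vgf (32.61 CPM), had a lower sum (726 CPM) than control 1 (1000.4 CPM) and knockout 2 (1991 CPM). A link between Vgf and these genes was not tested.

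Vgf had the widest range of the members over the 4 libraries, 1.82-fold. Genes with a like profile were ranked by the root mean square difference of centred log2 CPM over the 4 libraries. The ranking held 9790 genes whose mean log2 CPM was 3 or more, with the members and genes under predicted or clone-type names left out. The nearest were Pafah2 (0.0348), Gng2 (0.0514), Rbbp9 (0.0552), Kyat1 (0.0573) and Efemp2 (0.0577), where the median gene was at 0.334. Gng2, a G protein subunit gene, had 17.4 and 23.5 CPM in control and 13.0 and 15.9 in knockout libraries. Values of these genes are a description, since the profile chose them.

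Markers of other cells that an islet preparation can hold are given beside these results for whole lists. All 9 tested macrophage markers were negative (median -0.64), and the 10 listed ones summed to 102 and 85.3 CPM in control and 73.0 and 60.8 in knockout libraries. Of the 9 tested, 6 were lower in both knockout libraries, beside 15.0% of all genes tested. An unadjusted p under 0.05 (edgeR's quasi-likelihood test across all genes) was seen in 5 of the 9, and in 594 of the 16924 genes tested. Of 7 tested markers of nerve, glia and chromaffin cells, which also make granins, 4 were positive and 3 negative (median 0.0073). The sums of the 11 listed ones were 103 and 81.0 CPM in control and 107 and 116 in knockout libraries. Of these sums Elavl4 alone gave 67.2 and 47.6 CPM in control and 60.6 and 81.3 in knockout libraries. Sums of unlike genes do not show how much granin RNA such cells added. Alpha, beta and delta cell markers had medians of 0.04, 0.0050 and 0.03. Ductal (-0.06), endothelial (-0.25) and stellate (-0.57) markers had negative medians. Both knockout libraries were lower in 1 of 7 ductal, 4 of 7 endothelial and 4 of 6 stellate markers, and higher in 0 of each. The same was so in 1 of 7 nerve, glia and chromaffin markers and in 0 alpha, beta or delta cell markers. All 9 tested acinar markers were positive, with the largest median of the marker lists (1.30), but 0 of them were higher in both knockout libraries. In the marker lists 0 genes were called. No marker of any list was at 0 counts in all 4 libraries. Their part in the members' values was not tested.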

How the data were processed

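RNA from mouse islets was sequenced in 2 control and 2 Tspan7 knockout libraries made with a directional library kit, per the labels' protocols. The authors deposited raw counts per Ensembl gene, unnormalized. HISAT2 and featureCounts (no versions) and the build GRCm39 come from the submitters' processing notes. For the annotation, strand setting and multi-mapping reads, the treatment is not given in the sources used here. Scg3 overlaps 1 gene and Pcsk1n another on the opposite strand, so those counts carry that uncertainty.

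Groups follow the sample titles, and the column names WT and KO match them. GENCODE M21 and RefSeq (both GRCm38, not the authors' build) gave symbols (52403 of 52636 identifiers), lengths of all annotated exons merged, and promoters. No position from them was used with the counts. The tools were R 4.3.3, edgeR 4.0.16, limma 3.58.1 and DESeq2 1.42.0. Genes passed filterByExpr (minimum count 10), with trimmed mean of M-values (TMM) scaling. The robust quasi-likelihood F test was two-sided, with no covariate, and adjusted over all genes (threshold 0.05). CPM are counts of a gene scaled to the effective library size over tested genes, as means ± SD. The fit was also run on simulated data, whose outcome is not given here, so its power for small changes is not stated.

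The 8 members, the 17 other lists and the rule for named genes (the members, their partners, Ins1, Ins2, Gcg, 3 genes of smallest p in each of the 8 related lists, and 5 genes nearest the most variable member) were chosen with earlier results of these data known. Gene pairs, and the count of Eras, were chosen after values were seen. Alternatives were 2 other scalings, DESeq2, limma-voom, no low-count filter, a replicate block and leaving out each library. Libraries held 7855665 to 9377220 counts, and the intervals on shares of counts cover counting error only.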

Additional observations from a re-analysis of the deposited data

How the results depend on the processing

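No member was called under any of the 11 alternatives run. Outside the leave-out fits, the 315 values of the 45 named genes kept their direction. The count of called genes over the whole table, 1 in the fit reported, was 6 with DESeq2, 62 with no low-count filter (32032 genes tested), 6 with the replicate block and 2 with the crossed block, and it ran from 1 to 48 with 1 library left out, the highest without control replicate 1. The cause was not tested. The replicate numbers are not said to mark shared animals or days, so the calls with the replicate block (1 higher, 5 lower, 0 members) are given only here. Deviations of same-numbered libraries correlated at -0.30 across genes, so a crossed pairing, chosen after seeing the data, was also run and called 1 gene higher, 1 lower and 0 members. With 1 library left out, the lone library of its group is assumed to vary like the other group. Over these fits the members' median log2 fold change ran from -0.22 to 0.0389 and their summed log2 ratio from -0.22 to 0.24. Log2 fold changes whose direction changed with the library left out ran from -0.0534 to 0.32 for Chga, -0.25 to 0.0337 for Chgb, -0.44 to 0.27 for Scg2, -0.10 to 0.32 for Scg3, -0.26 to 0.0749 for Scg5 and -0.27 to 0.14 for Pcsk1n. Among the other named genes they ran from -0.31 to 0.0112 for Pcsk1, -0.15 to 0.21 for Pcsk2, -0.24 to 0.18 for Cpe, -0.22 to 0.0288 for Nucb1, -0.27 to 0.17 for Ins1, -0.18 to 0.24 for Ins2, -0.19 to 0.19 for Gcg, -0.37 to 0.0041 for Pam, -0.11 to 0.45 for Ica1l, -0.0424 to 0.16 for Pyy, -0.12 to 0.25 for Ppy, -0.18 to 0.33 for Sst, -0.0044 to 0.54 for Ucn3, -0.29 to 0.11 for Resp18, -0.47 to 0.0350 for Rcn1, -0.35 to 0.0919 for Calu, -0.0351 to 0.26 for Insm1 and -0.0770 to 0.94 for Dusp1. Others kept their direction but moved by over 1.5 times from their value with all 4 libraries. They ran from -0.70 to -0.15 for Vgf, -0.63 to -0.0274 for Nucb2, -0.29 to -0.0770 for Cpd, -0.82 to -0.21 for Slc18a1, -0.39 to -0.0779 for Ptprn, 0.0440 to 0.48 for Slc30a8, 0.0731 to 0.20 for Ica1, -1.27 to -0.10 for Pdyn, -0.25 to -0.0303 for Sdf4, -0.32 to -0.0015 for Creb1, 0.51 to 1.13 for Npas4, 0.15 to 2.59 for Fos, -0.70 to -0.19 for Pafah2, -0.71 to -0.27 for Gng2, -0.71 to -0.19 for Rbbp9, -0.63 to -0.0637 for Kyat1 and -0.71 to -0.15 for Efemp2. Hid1 (-0.14 to -0.0785) and Crem (-0.34 to -0.22) moved less than that from their values with all 4 libraries. With 2 libraries a group, the intervals of the members reach from 16.7% to 47.6% below the control level. They also reach from 1.79% to 46.4% above it.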
